A study of Homo sapiens with 6 samples.

Results

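The stress genes of the GADD45, PPP1R15 and Tribbles families were followed in Huh7, an established human liver cancer line, after knockdown of versican. The members were the rows of the deposited expression table with the symbols GADD45A, GADD45B, GADD45G, GADD45GIP1, PPP1R15A, PPP1R15B, TRIB1 or TRIB2. Of these 8 genes, 7 were measured, out of 23344 genes in the table, and TRIB2 was not analysed here. The libraries labelled sh2 came from Huh7 cells given a lentivirus for knockdown of VersicanV1, an isoform of a large proteoglycan of the extracellular matrix, and the libraries labelled shNC from Huh7 cells given a control lentivirus. There were 3 libraries per group. The label sh2 stands for a single hairpin, so an effect of versican loss and an effect of that hairpin alone cannot be told apart.

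GADD45 proteins are small, inducible proteins without enzyme activity that bind cell cycle proteins such as PCNA, the CDK1 and cyclin B1 pair and the inhibitor p21, and that switch on the kinase MAP3K4 upstream of p38 and JNK. PPP1R15 proteins bring the phosphatase PP1 to the translation factor eIF2 and remove the phosphate that stress kinases put on its alpha subunit, which lets protein synthesis resume. Tribbles proteins are pseudokinases that bring the ubiquitin ligase COP1 to its substrates, among them the hepatocyte transcription factor C/EBP alpha. GADD45A, GADD45B, PPP1R15A and TRIB1 are known for messages that stress or growth signals induce within a short time.

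Of the 7 members, the eIF2 phosphatase subunit gene PPP1R15A and the pseudokinase gene TRIB1 rose in sh2 cells, each by about 1 on the log2 scale. The p53-inducible gene GADD45A had the largest difference of the members but did not pass the test, and 1 of the 3 sh2 libraries lay close to the shNC level. Their relatives GADD45B, GADD45G and PPP1R15B overlapped between the groups. In numbers, 2 members were called higher and 0 lower (limma, Benjamini-Hochberg adjusted p below 0.05 over all 13696 genes tested), where 8.08% of all genes tested were called, 4.15% higher and 3.94% lower. The libraries of the groups did not overlap for 4 members, 3 higher and 1 lower in sh2, as for 33.1% of all genes tested. At an unadjusted p under 0.05, 3 members were higher and 0 lower. For this cutoff, used again for the lists below, the share of all genes tested was not counted. That share is well above the 8.08% called, because genes such as GADD45A met this cutoff without a call. It is about an unadjusted p near 0.05 divided by its adjusted p. For the list gene ATF5 these were 0.0484 and 0.1675 (limma). Each count at this cutoff, of members or of list genes, is to be read beside that share. After rescaling without the mitochondrially encoded genes, 680 genes of the table were called higher and 223 lower, against 568 and 539, and the members' calls were the same. All 7 measured members passed the filter on low values. Their median log2 fold change was 0.20, against -0.03 over all genes tested. Every fold change here is a difference of log2(value + 1), where the values are treated as FPKM (fragments scaled by transcript length and library size), and it understates the change of low genes.

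The targeted gene was checked first. VCAN, the versican gene, had 1.90, 1.74 and 1.64 FPKM in sh2 replicates 1, 2 and 3, against 4.79, 6.24 and 8.10 FPKM in shNC replicates 1, 2 and 3 (log2 fold change -1.39, SE 0.19, limma adjusted p = 0.0103, or 0.0537 without shNC replicate 2). The table has 1 row per gene, so nothing is known of V1 apart from other isoforms. Library totals lay between 922125 and 975501 in sh2 and between 851418 and 947769 in shNC libraries, and the relative depth read from low values lay between 0.912 and 1. The mitochondrially encoded genes held 23.8% to 31.2% of the total in sh2 libraries and 16.0% to 19.2% in shNC libraries. This share enters every value through the scaling, and the members were therefore also tested after rescaling without these genes, which left each call as it was. The 11 hepatocyte markers were all measured and summed to between 8049 and 10190 FPKM in sh2 and between 6648 and 8262 FPKM in shNC libraries. Among them the apolipoprotein gene APOA1 and the fibrinogen gene FGB rose by 1.05 and 0.70 on the log2 scale, and TTR, the transthyretin gene, fell by 1.19. The 12 measured leukocyte and red blood cell markers summed to 209 FPKM in sh2 replicate 2, against 108.7 and 109.4 FPKM in the other sh2 libraries and 76.5 to 92.6 FPKM in shNC libraries; S100A8, a neutrophil gene, was at 17.9 FPKM in sh2 replicate 2 and listed at 0 in the other libraries. LYZ, the lysozyme gene, was the 1 marker of that list called higher, with 44.5, 68.2 and 37.8 FPKM in sh2 replicates 1, 2 and 3, against 18.3, 24.7 and 24.8 FPKM in shNC replicates 1, 2 and 3 (limma adjusted p = 0.0277). In such bulk RNA, fewer cells of a type and less RNA per cell cannot be told apart. Without sh2 replicate 2 the log2 fold changes were 1.00 for PPP1R15A, 1.00 for TRIB1 (which then did not pass) and 1.36 for GADD45A, and the part of these marker changes in the members' results was not tested further. Of the 5 endothelial markers only 2 were measured, VWF and KDR, and their sum was at most 0.17 FPKM in any library. Of the 5 fibroblast markers measured, 4 were at 1.01 FPKM or less. The fifth, LUM, a matrix proteoglycan gene, averaged 162 FPKM in sh2 and 170 FPKM in shNC cells (log2 fold change -0.06, limma adjusted p = 0.738).

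**Figure D1:**
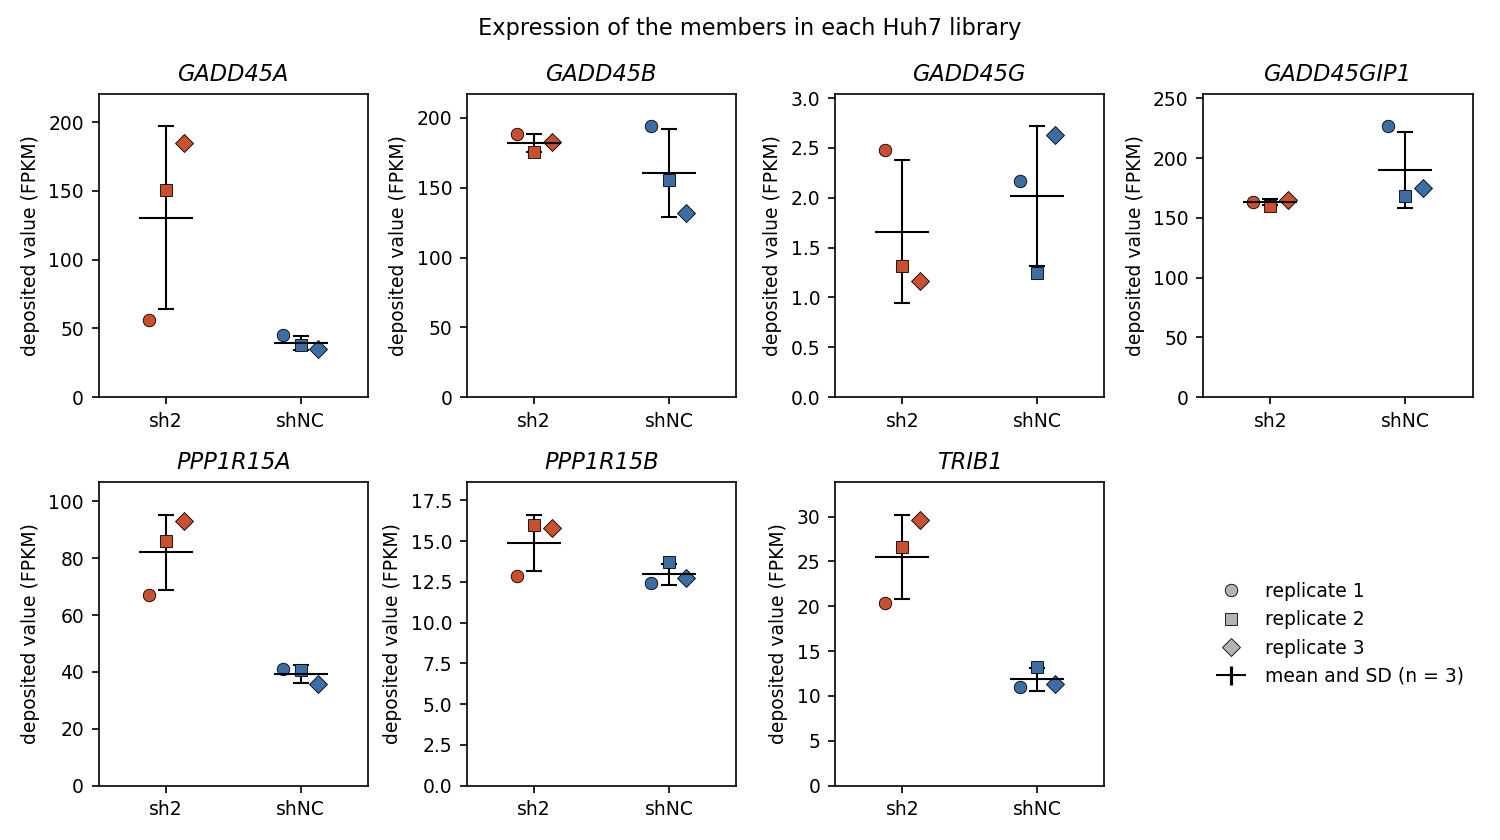
Deposited values (FPKM, linear axes from 0) of the 7 measured members in every library, with sh2 left of shNC, symbols for the replicate number, and bars for the mean and SD (n = 3 per group). PPP1R15A and TRIB1 lie above all shNC libraries in each sh2 library, while GADD45A has 56.1 FPKM in sh2 replicate 1 and 151 and 185 FPKM in the others.

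The order of the members' levels, per transcript length, differed in places between the groups. In sh2 cells the order from high to low was GADD45B (182 FPKM), GADD45GIP1 (163), GADD45A (131), PPP1R15A (82.0), TRIB1 (25.5), PPP1R15B (14.9) and GADD45G (1.66 FPKM). In shNC cells it was GADD45GIP1 (190 FPKM), GADD45B (160), GADD45A (39.4), PPP1R15A (39.2), PPP1R15B (12.97), TRIB1 (11.9) and GADD45G (2.02 FPKM). Neighbours whose libraries overlapped were GADD45GIP1 and GADD45A, and GADD45A and PPP1R15A, in sh2 cells. In shNC cells they were GADD45GIP1 and GADD45B, GADD45A and PPP1R15A, and PPP1R15B and TRIB1. TRIB1 and PPP1R15B thus changed places, as did GADD45B and GADD45GIP1, with no overlap within either pair in sh2 cells. GADD45G was near the bottom of what these cells express, at the 9.45th percentile of all genes tested in sh2 and the 14.9th in shNC cells.

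PPP1R15A, also called GADD34, encodes the stress-inducible subunit of the eIF2 phosphatase. It had 67.2, 86.0 and 93.0 FPKM in sh2 replicates 1, 2 and 3, against 41.2, 40.8 and 35.6 FPKM in shNC replicates 1, 2 and 3. Every sh2 library lay above every shNC library, as held for 14.4% of all genes tested in this direction. The mean was 82.0 ± 13.3 FPKM in sh2 and 39.2 ± 3.09 FPKM in shNC cells (SD, n = 3 each), a ratio of 2.09. PPP1R15A rose (log2 fold change 1.04, SE 0.14, 95% interval 0.71 to 1.36, limma adjusted p = 0.0105). It kept the call in 11 of 12 alternatives, and without shNC replicate 2 the adjusted p was 0.0517.

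PPP1R15B, also called CReP, encodes the constitutive counterpart that holds eIF2 phosphorylation down in unstressed cells. It had 12.9, 16.0 and 15.8 FPKM in sh2 replicates 1, 2 and 3, against 12.5, 13.7 and 12.8 FPKM in shNC replicates 1, 2 and 3. The groups overlapped through sh2 replicate 1, and PPP1R15B did not pass (log2 fold change 0.18, 95% interval -0.12 to 0.48, limma adjusted p = 0.397). Its interval ends below the lower bound of the PPP1R15A interval. The ratio of PPP1R15A to PPP1R15B within a library was 5.21, 5.37 and 5.89 in sh2 replicates 1, 2 and 3, against 3.31, 2.98 and 2.79 in shNC replicates 1, 2 and 3. These ratios did not overlap, and their two-sided exact permutation p was 0.1, the smallest that 3 libraries against 3 allow (0.133 adjusted over 4 ratios).

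With 3 libraries a group, the permutation test of the PPP1R15A to PPP1R15B ratio cannot give a p below 0.1. No other test of this ratio was run. The 250 bases before the start of both genes are shown because PPP1R15A rose and its constitutive relative did not pass the test. They are RefSeq sequences of GRCh38.p14, read 5′ to 3′ on the strand of the gene: chr19:48872171-48872420 on the plus strand for PPP1R15A and chr1:204411818-204412067 on the minus strand for PPP1R15B. Capitals mark matches of the motifs searched.
PPP1R15A: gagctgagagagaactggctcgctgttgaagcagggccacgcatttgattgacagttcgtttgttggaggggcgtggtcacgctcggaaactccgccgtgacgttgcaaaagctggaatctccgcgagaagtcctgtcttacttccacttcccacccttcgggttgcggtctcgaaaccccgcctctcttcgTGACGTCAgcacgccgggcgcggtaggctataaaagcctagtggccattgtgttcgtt
PPP1R15B: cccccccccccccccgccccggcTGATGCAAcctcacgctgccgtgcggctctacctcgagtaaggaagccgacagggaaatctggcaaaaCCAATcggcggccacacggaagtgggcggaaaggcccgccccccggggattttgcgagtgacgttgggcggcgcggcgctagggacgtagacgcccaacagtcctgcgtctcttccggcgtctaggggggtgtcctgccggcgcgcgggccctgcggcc

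The motifs, searched on both strands with any overlap allowed, were the cAMP response element (TGACGTCA), AP-1 (TGANTCA), the ATF4 composite element (TGATGNAAT), NF-kB (GGGNNTTCC) and NF-Y (CCAAT). A shortened composite element, TGATGNAA, was added after the sequences were seen. The PPP1R15A window holds TGACGTCA, whose first base lies 58 bases before the start, and 1.65% of the 35116 windows of all genes hold it. The PPP1R15B window holds CCAAT, as 32.0% of all windows do, and TGATGNAA, as 3.14% do. Windows of GADD45B, GADD45G and GADD45GIP1 were also searched. GADD45B holds CCAAT at 2 places and GADD45G at 1, GADD45G also holds TGATGNAA, and none of the motifs was matched in the window of GADD45GIP1. A match describes the letters of the window and does not show binding.

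TRIB1 encodes a Tribbles pseudokinase that pairs COP1 with C/EBP alpha. It had 20.3, 26.6 and 29.6 FPKM in sh2 replicates 1, 2 and 3, against 10.95, 13.3 and 11.3 FPKM in shNC replicates 1, 2 and 3. All sh2 libraries lay above all shNC libraries. The mean was 25.5 ± 4.72 FPKM in sh2 and 11.9 ± 1.24 FPKM in shNC cells (SD, n = 3 each), a ratio of 2.15. TRIB1 rose (log2 fold change 1.03, SE 0.16, 95% interval 0.67 to 1.40, limma adjusted p = 0.0144). The call held in 9 of 12 alternatives, and the adjusted p was 0.0571 without sh2 replicate 2, 0.0591 without shNC replicate 1 and 0.0537 without shNC replicate 2.

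TRIB3, the Tribbles gene best known as a target of ATF4 and CHOP, is not one of the 8 members and is given beside TRIB1. It had 58.9, 42.6 and 40.0 FPKM in sh2 replicates 1, 2 and 3, against 62.4, 58.2 and 41.4 FPKM in shNC replicates 1, 2 and 3, with overlapping groups (log2 fold change -0.19, 95% interval -0.63 to 0.25, limma adjusted p = 0.555). The ratio of TRIB1 to TRIB3 was 0.345, 0.624 and 0.741 in sh2 replicates 1, 2 and 3, against 0.175, 0.228 and 0.274 in shNC replicates 1, 2 and 3 (two-sided exact permutation p = 0.1, the smallest possible; 0.133 adjusted).

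Among 8 genes of Tribbles partner proteins, 7 were tested, and 0 were called higher and 2 lower, with a median log2 fold change of -0.10. CEBPA, which encodes C/EBP alpha, had 26.8, 19.8 and 12.3 FPKM in sh2 replicates 1, 2 and 3, against 42.8, 64.5 and 44.4 FPKM in shNC replicates 1, 2 and 3. CEBPA fell (log2 fold change -1.36, SE 0.26, limma adjusted p = 0.0247), with 7 of 12 alternatives past the threshold. AKT1, a survival kinase gene, fell to 22.9 FPKM in sh2 cells, against 35.3 FPKM in shNC cells (log2 fold change -0.61, limma adjusted p = 0.0334), and 3 of 12 alternatives passed. CEBPB (0.30), RFWD2, which encodes COP1 (0.22), and MAP2K1 (-0.14 on the log2 scale) did not pass. At an unadjusted p under 0.05, 0 genes of this list were higher and 2 lower, no excess over the share of all genes tested.

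**Figure D2:**
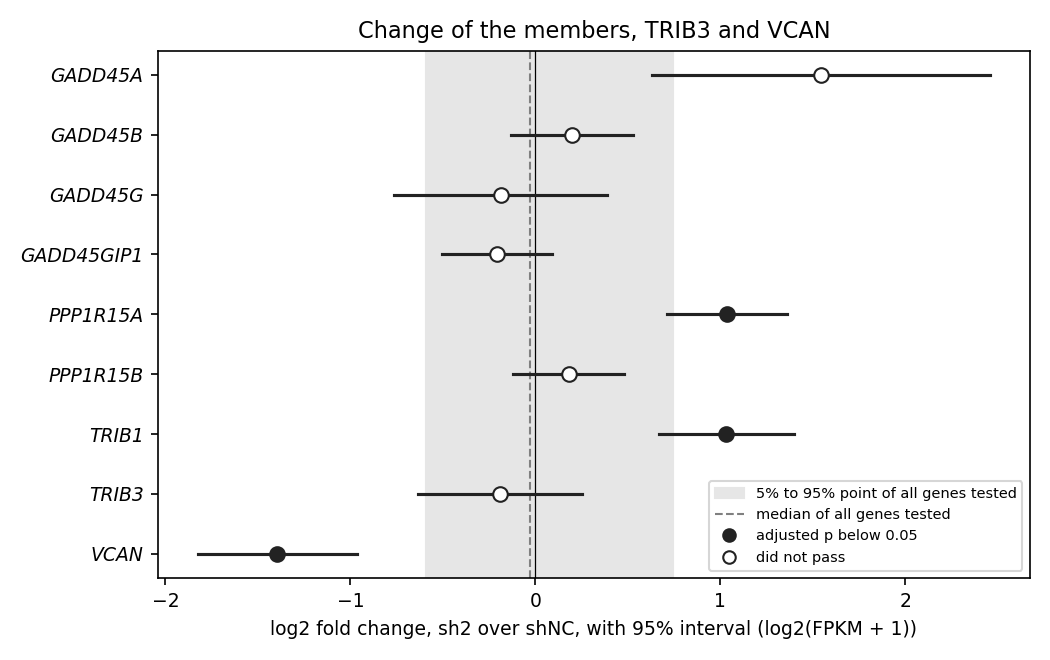
Log2 fold changes of sh2 over shNC on the log2(FPKM + 1) scale, with 95% intervals, for the 7 measured members, TRIB3 and VCAN; filled circles have an adjusted p below 0.05. The grey band runs from the 5% point (-0.59) to the 95% point (0.75) of all genes tested, and GADD45A, PPP1R15A and TRIB1 lie beyond its upper edge.

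GADD45A encodes the GADD45 protein first known from DNA damage. It had 56.1, 151 and 185 FPKM in sh2 replicates 1, 2 and 3, against 45.1, 38.0 and 35.0 FPKM in shNC replicates 1, 2 and 3. All sh2 libraries lay above all shNC libraries, but sh2 replicate 1 was nearer to the shNC libraries than to the other sh2 libraries. The mean was 131 ± 66.6 FPKM in sh2 and 39.4 ± 5.20 FPKM in shNC cells (SD, n = 3 each), a ratio of 3.32. With this spread GADD45A did not pass (log2 fold change 1.55, SE 0.39, 95% interval 0.63 to 2.46, limma adjusted p = 0.0529), although its fold change stood at the 99.4th percentile of all genes tested. Without sh2 replicate 1 GADD45A passed, with a log2 fold change of 2.06 and an adjusted p of 0.000149. In the other 11 alternatives the adjusted p lay between 0.0520 and 0.182.

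GADD45B, the relative induced by NF-kB and TGF-beta signals, had the highest mean of the GADD45A, GADD45B and GADD45G genes in both groups, although GADD45A was above it in sh2 replicate 3. It had 188, 176 and 183 FPKM in sh2 replicates 1, 2 and 3, against 194, 155 and 132 FPKM in shNC replicates 1, 2 and 3. The sh2 libraries all fell within the range of the shNC libraries, and GADD45B did not pass (log2 fold change 0.20, 95% interval -0.13 to 0.53, limma adjusted p = 0.394). The ratio of GADD45A to GADD45B was 0.298, 0.860 and 1.01 in sh2 replicates 1, 2 and 3, against 0.232, 0.245 and 0.265 in shNC replicates 1, 2 and 3. The ratios were apart between groups (two-sided exact permutation p = 0.1, the smallest possible; 0.133 adjusted), by little for sh2 replicate 1.

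GADD45G, the third relative, was at 2.48, 1.32 and 1.17 FPKM in sh2 replicates 1, 2 and 3, against 2.17, 1.25 and 2.63 FPKM in shNC replicates 1, 2 and 3. The groups overlapped (log2 fold change -0.19, 95% interval -0.76 to 0.39, limma adjusted p = 0.659). At this level the interval is wide. The ratio of GADD45A to GADD45G ran from 22.6 to 158 in sh2 and from 13.3 to 30.4 in shNC libraries, which overlapped (exact permutation p = 0.2, two-sided; 0.2 adjusted).

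Among 7 genes of GADD45 partner proteins, all tested, 2 were called higher and 1 lower, with a median log2 fold change of -0.13. CDKN1A, which encodes the CDK inhibitor p21, had 10.9, 9.92 and 9.03 FPKM in sh2 replicates 1, 2 and 3, against 5.45, 5.89 and 4.63 FPKM in shNC replicates 1, 2 and 3, with no overlap (log2 fold change 0.79, SE 0.14, limma adjusted p = 0.0212). TDG, the thymine DNA glycosylase gene, rose to 21.4 FPKM in sh2 cells, against 13.1 FPKM in shNC cells (log2 fold change 0.67, limma adjusted p = 0.0223). CCNB1, the cyclin B1 gene, fell to 139 FPKM in sh2 cells, against 234 FPKM in shNC cells (log2 fold change -0.76, limma adjusted p = 0.0311). CDK1 (-0.67, limma adjusted p = 0.0587) and PCNA, the replication clamp gene (-0.62, limma adjusted p = 0.0740), did not pass, nor did MAP3K4 (-0.13). Over 12 alternatives CDKN1A and TDG passed in 6 each and CCNB1 in 5.

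Of 16 genes of the p38 and JNK cascade that GADD45 proteins act on, 15 were tested, and 0 were called higher and 1 lower, with a median log2 fold change of -0.13. At an unadjusted p under 0.05, 1 was higher and 2 were lower, no excess over the share of all genes tested. The called gene was MAPK9, which encodes JNK2 and had 13.3, 13.8 and 13.5 FPKM in sh2 replicates 1, 2 and 3, against 18.4, 20.4 and 18.8 FPKM in shNC replicates 1, 2 and 3 (log2 fold change -0.47, limma adjusted p = 0.0418; past the threshold in 3 of 12 alternatives). MAP2K6, a kinase that activates p38, had a log2 fold change of 0.55 (limma adjusted p = 0.104), MAPKAPK3 one of -0.39, MAP2K7 one of 0.25 and MAPK12 one of -0.22, and none of these 4 passed.

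GADD45GIP1 is named for binding GADD45 proteins but is chiefly a protein of the large subunit of the mitochondrial ribosome, where it is needed to make the mitochondrially encoded proteins. It had 164, 160 and 165 FPKM in sh2 replicates 1, 2 and 3, against 227, 168 and 175 FPKM in shNC replicates 1, 2 and 3. The sh2 libraries all lay below the shNC libraries, as held for 18.7% of all genes tested in this direction, with shNC replicate 1 far above the rest. It did not pass (log2 fold change -0.21, 95% interval -0.51 to 0.09, limma adjusted p = 0.327), and without shNC replicate 1 the log2 fold change was -0.07.

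Genes for the other proteins of that ribosomal subunit were called lower more than higher. Of 50 genes of the large subunit of the mitochondrial ribosome, 47 were tested, and 0 were called higher and 6 lower, with a median log2 fold change of -0.26 and 4 genes above 0. At an unadjusted p under 0.05, 0 were higher and 23 lower. The share of all genes tested that met this cutoff was not counted. It is well above the 8.08% called, as described for ATF5 above, so the called shares are no measure for these 23 genes. MRPL33 fell to 106 FPKM in sh2 cells, against 174 FPKM in shNC cells (log2 fold change -0.72, SE 0.10, limma adjusted p = 0.0107), and MRPL37, MRPL49, MRPL51 and MRPL18 fell by 0.67, 0.65, 0.52 and 0.53 on the log2 scale. Over 12 alternatives MRPL33 passed in 10, MRPL37 in 6, MRPL49 in 5 and MRPL51 and MRPL18 in 3 each. The sixth gene was MRPL35 (-0.58), which falls outside the naming rule and was chosen after its values were seen. After rescaling without the mitochondrially encoded genes, whose share was higher in every sh2 library, the median was -0.16 and 2 genes were called lower. Without sh2 replicate 1, 17 were called lower, and without sh2 replicate 2 or shNC replicate 2, 0. Of the 47 genes, 29 (61.7%) had their highest value in shNC replicate 1, where 16.5% of all genes tested did.

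PPP1R15A acts at the end of the integrated stress response, in which 1 of several kinases phosphorylates eIF2, the transcription factor ATF4 is made, and ATF4 and CHOP switch on their targets. Of 15 genes for eIF2 kinases, eIF2 and eIF2B subunits and PP1 catalytic subunits, all tested, 1 was called higher and 1 lower, with a median log2 fold change of -0.22. The counts at an unadjusted p under 0.05 were 1 higher and 6 lower. EIF2AK3, which encodes the eIF2 kinase PERK of the endoplasmic reticulum, had 15.9, 22.8 and 24.2 FPKM in sh2 replicates 1, 2 and 3, against 7.84, 12.1 and 10.6 FPKM in shNC replicates 1, 2 and 3 (log2 fold change 0.97, SE 0.20, limma adjusted p = 0.0289; 6 of 12 alternatives). PPP1CC, a catalytic subunit of PP1, fell to 64.7 FPKM in sh2 cells, against 108 FPKM in shNC cells (log2 fold change -0.76, limma adjusted p = 0.0336; 5 of 12 alternatives). The subunit genes EIF2B2 (-0.49, limma adjusted p = 0.0528) and EIF2B3 (-0.62) and the kinase gene EIF2AK1 (-0.35) did not pass.

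Of 29 ATF4 and CHOP target genes, all tested, 3 were called higher and 0 lower, with a median log2 fold change of 0.30. At an unadjusted p under 0.05, 6 were higher and 4 lower. GDF15, a secreted stress cytokine, had 289, 133 and 150 FPKM in sh2 replicates 1, 2 and 3, against 28.3, 27.1 and 25.2 FPKM in shNC replicates 1, 2 and 3 (log2 fold change 2.70, SE 0.26, limma adjusted p = 0.00501; 12 of 12 alternatives). ATF3, an inducible transcription factor gene, had 17.01, 50.3 and 65.5 FPKM in sh2 replicates 1, 2 and 3, against 11.1, 9.36 and 6.05 FPKM in shNC replicates 1, 2 and 3 (2.04, SE 0.46, limma adjusted p = 0.0422; 5 of 12 alternatives). CARS, the cysteine tRNA ligase gene, rose by 0.48 (limma adjusted p = 0.0384; 4 of 12 alternatives), while WARS (-0.66, limma adjusted p = 0.0540) and SHMT2 (-0.51) did not pass. ATF4 itself (439 FPKM in sh2 and 355 FPKM in shNC cells, log2 fold change 0.29, limma adjusted p = 0.191) and DDIT3, which encodes CHOP (21.7 FPKM in sh2 and 16.97 FPKM in shNC cells, 0.33, limma adjusted p = 0.143), did not pass either; both fall outside the naming rule and were chosen after their values were seen.

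Within this list sh2 replicate 1 stood apart from the other sh2 libraries. Of the 29 genes, 15 (51.7%) had their highest value in sh2 replicate 1, where 13.1% of all genes tested did. ASNS, the asparagine synthetase gene, had 286, 72.1 and 73.1 FPKM in sh2 replicates 1, 2 and 3, against 90.1, 90.2 and 84.0 FPKM in shNC replicates 1, 2 and 3. PSAT1, a serine synthesis gene, had 331, 105 and 90.2 FPKM in sh2 replicates 1, 2 and 3, against 143, 160 and 132 FPKM in shNC replicates 1, 2 and 3. In both genes sh2 replicate 1 was high and the other sh2 libraries were below every shNC library; they were chosen after their values were seen. Without sh2 replicate 1 the median of the list was 0.07, with 6 genes called higher and 3 lower.

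**Figure D3:**
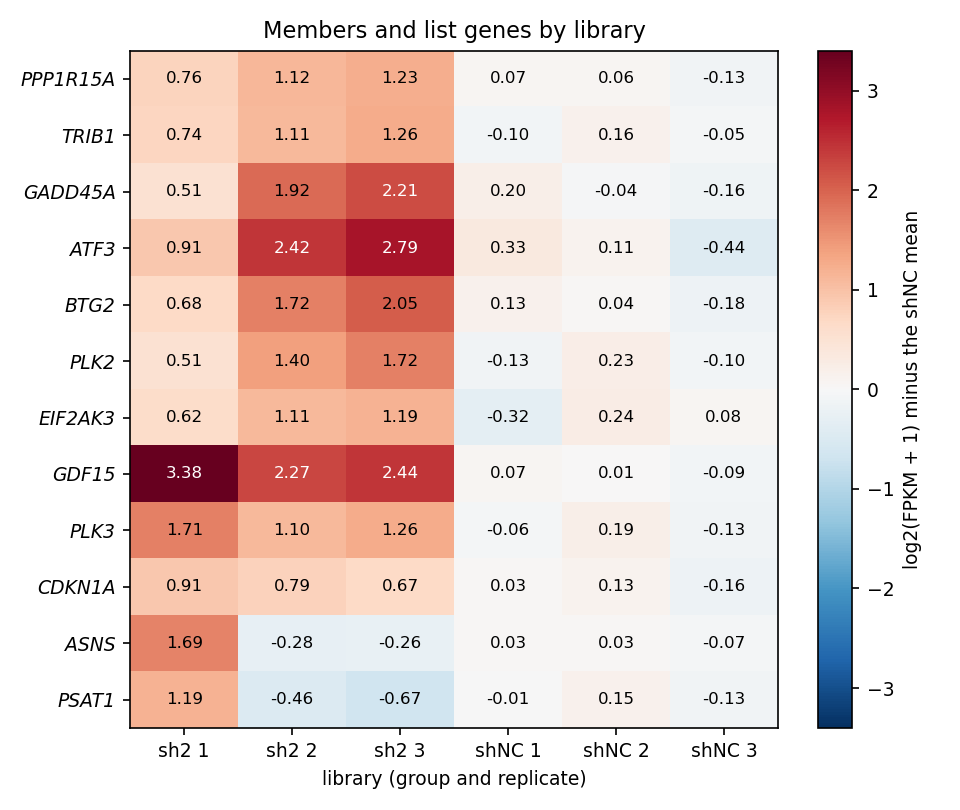
Log2(FPKM + 1) of 3 members and 9 list genes in each library minus the shNC mean of that gene, with sh2 libraries left of shNC libraries. In sh2 replicate 1, GADD45A is at 0.51 and ATF3 at 0.91, below the other sh2 libraries, while GDF15 is at 3.38, ASNS at 1.69 and PSAT1 at 1.19, above them.

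PERK is 1 of the sensors of the stress response of the endoplasmic reticulum. The list held 20 other genes of that response, mostly chaperone and folding genes with some for sensors and protein degradation, all tested. By limma 0 were called higher and 0 lower, with a median log2 fold change of 0.06. At an unadjusted p under 0.05, with no excess over the share of all genes tested, 0 were lower and 3 higher. These were EDEM1, which takes misfolded proteins to degradation (log2 fold change 0.48, limma adjusted p = 0.0571), the chaperone gene DNAJB11 (170 FPKM in sh2 and 131 FPKM in shNC cells, 0.37, limma adjusted p = 0.101) and SYVN1, a ubiquitin ligase gene (0.32, limma adjusted p = 0.127). DNAJC3 (0.32) and SDF2L1 (-0.33) did not pass either. With quantile normalization or after rescaling without the mitochondrially encoded genes, 1 gene was called higher, and without sh2 replicate 1, 2 were called higher and 1 lower.

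GADD45A is also a target of p53, of which Huh7 carries a mutant form. Of 22 other p53 target genes, 20 were tested, and 5 were called higher and 0 lower, with a median log2 fold change of 0.08. At an unadjusted p under 0.05, 8 were higher and 1 lower. PLK3, a stress-responsive polo-like kinase gene, had 15.0, 9.52 and 10.7 FPKM in sh2 replicates 1, 2 and 3, against 3.68, 4.58 and 3.48 FPKM in shNC replicates 1, 2 and 3 (log2 fold change 1.36, SE 0.19, limma adjusted p = 0.0103; 12 of 12 alternatives). BTG2, an antiproliferative gene, had 10.4, 22.6 and 28.5 FPKM in sh2 replicates 1, 2 and 3, against 6.84, 6.35 and 5.32 FPKM in shNC replicates 1, 2 and 3 (1.48, SE 0.31, limma adjusted p = 0.0302; 5 of 12 alternatives). PLK2, a relative of PLK3, and TP53I3, an oxidoreductase gene, rose by 1.21 and 0.72 on the log2 scale (5 and 6 of 12 alternatives), and the last of the 5 was CDKN1A, described above. The count of p53 targets called higher was 1 in each of the 5 fits that left out a library other than sh2 replicate 1, and 8 without that library.

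The calls of the pathway genes were lost under many alternatives. Of the 20 named list genes that were called, GDF15 and PLK3 kept their calls whichever library was left out. All 20 were kept without sh2 replicate 1, but 2 without sh2 replicate 2, 4 without sh2 replicate 3, 3 without shNC replicate 1, 2 without shNC replicate 2 and 3 without shNC replicate 3. With every library in the fit, 3 of the 20 were kept with no filter on low values, 12 without trend and robust moderation, 15 after rescaling without the mitochondrially encoded genes, 18 with quantile normalization and 20 with a pseudocount of 0.1.

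**Figure D4:**
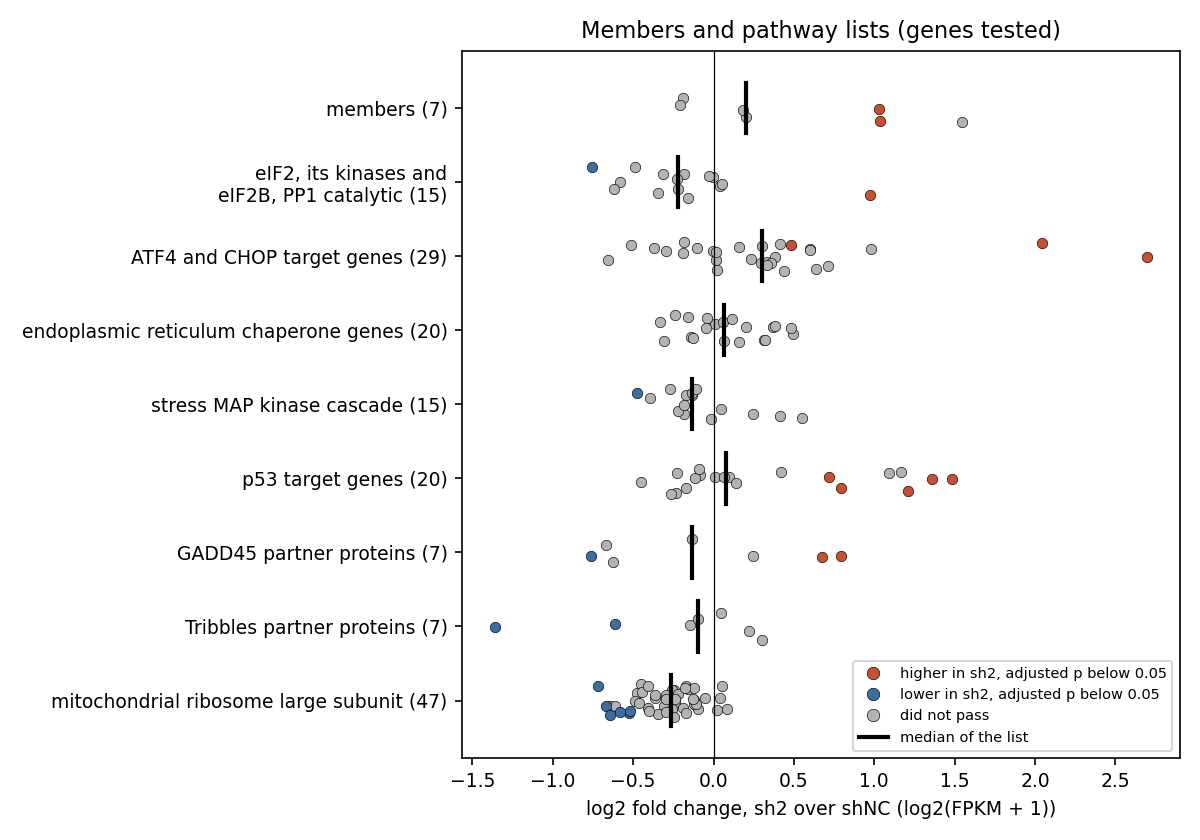
Log2 fold changes (log2(FPKM + 1), sh2 over shNC) of the 7 measured members and of the tested genes of 8 pathway lists, with black bars for the median and colours for genes with an adjusted p below 0.05. Medians run from -0.26 for the mitochondrial ribosome to 0.30 for ATF4 and CHOP targets.

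**Figure D5:**
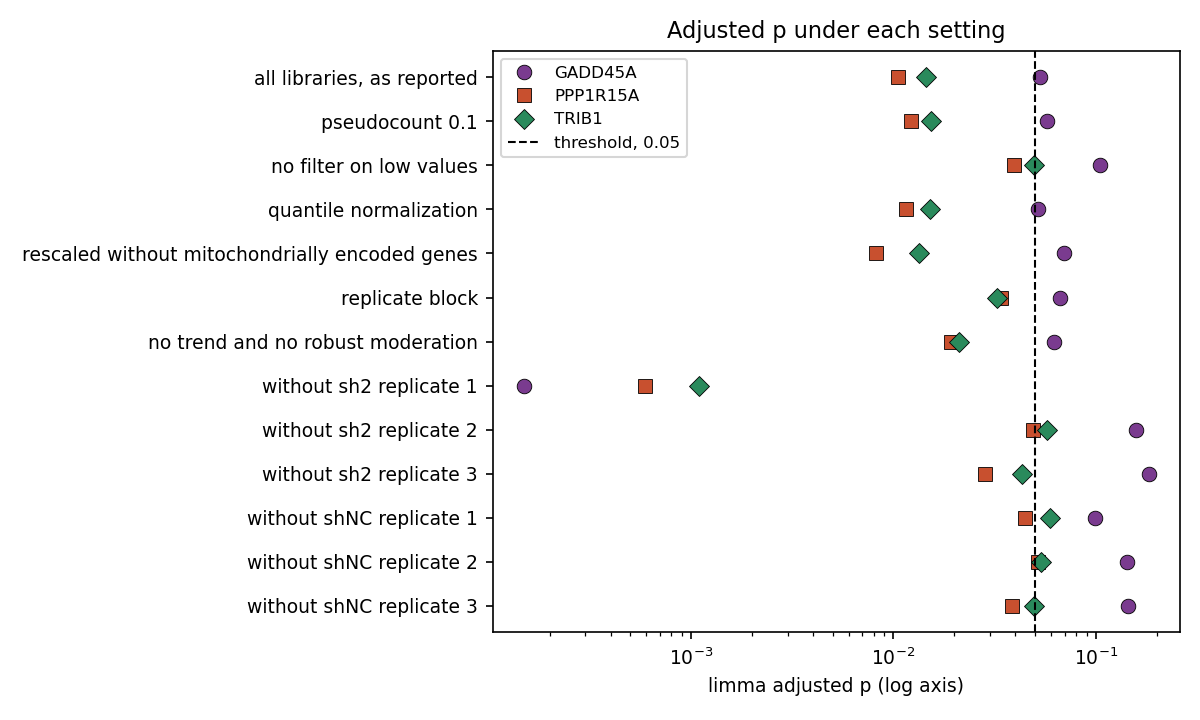
Limma adjusted p (log axis) of GADD45A, PPP1R15A and TRIB1 with all libraries and under 12 alternatives, with the threshold of 0.05 as a dashed line. Without sh2 replicate 1 all 3 genes pass, and without shNC replicate 2 none does.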

How the data were processed

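Per the labels' protocols, Trizol was used to isolate total RNA from the Huh7 cells, and libraries were made with an Illumina TruSeq RNA kit. The authors deposited 1 table of 23344 human Ensembl gene IDs with symbols and 1 column per library. The deposited values were treated as FPKM. The unit is not stated in the file, and they could also be TPM with part of the genes missing. The submitters' processing notes name, without roles, the aligner Bowtie2 2.2.6 and the quantifier RSEM 1.1.17, the trimmer Trimmomatic 0.36, bcl2fastq 2.19.0, DESeq2 1.16.1 and edgeR 3.18.1, and the mouse build mm10, so the build used is uncertain and no coordinates of the table's genes are given. Read totals are not given, so the depth is unknown in absolute terms and no counting interval is printed. Relative depth was read from the lower 5% point of low values times length of genes with 1 GENCODE release 29 transcript.

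The 13696 genes that reached 1 in 3 or more libraries were tested on log2(value + 1) with limma (version 3.58.1, R version 4.3.3). The test was two-sided, with robust moderation, a mean-variance trend and Benjamini-Hochberg adjustment. It was also run on simulated data whose noise was independent between genes and libraries. That check does not cover shifts shared by the genes of a library. "Rose" and "fell" mean an adjusted p below 0.05. The labels do not say whether a group's libraries were separate cultures; the p-values cover the spread among these libraries, possibly technical. Members, lists and tests were chosen with earlier results of these data known. From each list the 5 tested genes with the smallest p were named, besides the members, VCAN, TRIB3 and, for each member, the 3 genes with a mean log2 value of at least 3 that correlated most with it; other genes named, such as markers and MAP3K4, were chosen after their values were seen. Of the symbol MRPL30, found on 2 rows, the row whose ID carries that name in the reference was used. RefSeq promoter windows were used for 5 of the 8 members. A planned comparison of protein sequences was not made. Alternatives tried were quantile normalization, no filter, a pseudocount of 0.1, rescaling without mitochondrially encoded genes, the replicate number as a block, limma with no trend and no robust moderation, and leaving out each library in turn. One result on GADD45GIP1 is not reported here.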

Additional observations from a re-analysis of the deposited data

How the results depend on the processing

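Each of the 7 measured members kept its direction under all 12 alternatives. Leaving out 1 library each, the log2 fold change ran from 0.94 to 1.17 for PPP1R15A, from 0.92 to 1.18 for TRIB1 and from 1.21 to 2.06 for GADD45A, and the count of members called higher from 0 to 3, against 2 with all libraries. The count of all genes called ran from 56 (without shNC replicate 2) to 3284 (without sh2 replicate 1), against 1107 with all libraries, with 50 to 1573 higher and 6 to 1711 lower, against 568 and 539. With no filter on low values 221 were called (157 higher, 64 lower), and without trend and robust moderation 727 (277 lower). After rescaling without mitochondrially encoded genes 680 were higher and 223 lower. The cause of these shifts was not tested. For libraries with the same number, deviations from the group means correlated by 0.053, 0.105 and 0.135. Between unlike numbers the correlations lay between -0.21 and 0.094. The replicates 2 and 3 of sh2 correlated best with the shNC library of their number, and sh2 replicate 1 with shNC replicate 2. Pairing by number was thus partial at most, and the main fit holds no replicate block. With the replicate block 861 genes were called and both members kept their calls (adjusted p = 0.0341 for PPP1R15A and 0.0324 for TRIB1). Under this block CDK1 (adjusted p = 0.0442) and PCNA (0.0370) passed, and CARS, ATF3, MAPK9, BTG2 and AKT1 did not (0.0504 to 0.0629).

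Over all alternatives the number of ATF4 and CHOP targets called higher ran from 1 to 6 (3 with the reported settings), of p53 targets from 1 to 8 (5), of GADD45 partner genes from 0 to 2 (2), and of eIF2-related genes from 0 to 1 (1). The number called lower ran from 0 to 17 for the mitochondrial ribosome (6), from 0 to 6 for eIF2-related genes (1), from 0 to 3 for GADD45 partners (1) and for ATF4 and CHOP targets (0), and from 0 to 2 for Tribbles partners (2). No member and none of the genes named from the lists for their p changed sign; the genes most correlated with each member were not run under the alternatives. Depth is unknown, so its limit on low genes such as GADD45G was not measured.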

Other observations

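The genes whose log2 values over the 6 libraries correlated most with each member are given as a description. The libraries fall into the 2 groups of the study, so any gene that differs between them can correlate highly. For PPP1R15A they were NEDD9, a focal adhesion scaffold gene (Pearson r = 0.9995), the protease gene PRSS23 (0.998) and MAFK, a small MAF transcription factor gene (0.997). All of these rose, NEDD9 to 13.8 FPKM in sh2 cells, against 5.32 FPKM in shNC cells, and MAFK to 70.6 FPKM in sh2 cells, against 23.6 FPKM in shNC cells. For TRIB1 they were EDN1, the endothelin-1 gene (0.998), BIRC3, an apoptosis inhibitor gene (0.998), and OR2I1P (0.996). EDN1 had 29.5, 53.5 and 66.0 FPKM in sh2 replicates 1, 2 and 3, against 10.6, 14.4 and 10.6 FPKM in shNC replicates 1, 2 and 3 (log2 fold change 1.91, limma adjusted p = 0.0109).

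For GADD45A the most alike were VTN, the vitronectin gene (0.9985), RAB33B, a small GTPase gene (0.998), and KNTC1, a kinetochore gene (0.997). RAB33B (log2 fold change 0.44, limma adjusted p = 0.105) and KNTC1 (0.14, limma adjusted p = 0.404) did not pass. The r describes the pattern over the libraries and not the size of the change. VTN had 220, 363 and 416 FPKM in sh2 replicates 1, 2 and 3, against 196, 188 and 173 FPKM in shNC replicates 1, 2 and 3, and did not pass (log2 fold change 0.79, limma adjusted p = 0.0552). Like GADD45A, it was nearest to the shNC libraries in sh2 replicate 1. Among the members, PPP1R15A and TRIB1 had an r of 0.987 over the 6 libraries, GADD45A had 0.942 with PPP1R15A and 0.931 with TRIB1, and GADD45B had 0.464 with GADD45A. PPP1R15B, which did not pass the test, had 0.909 with GADD45A, 0.854 with TRIB1 and 0.814 with PPP1R15A.

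For PPP1R15B the first was KLF6, a zinc finger transcription factor gene (0.995), for GADD45B C1orf50 (0.973), for GADD45G RPAIN (0.973) and for GADD45GIP1 SNRPD2, a splicing protein gene (0.988). None of these 4 passed the test.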
